A study of Bos taurus with 5 samples.

Results

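The SLC25 family of mitochondrial solute carriers was examined in cattle (Bos taurus), in 5 libraries of sequenced RNA. Members were all entries of the expression table whose gene symbol starts with SLC25A followed by a digit, which gave 45 genes of 27607 in all. There is 1 library for each of 5 tissue labels, namely limb, heart, lung, skin and brain. The labels' protocols describe lysed cells and pre-amplification of their RNA on a microfluidic single-cell chip. The sources used here do not give age or strain, nor the number of cells or animals in a library. With no replicates, no error or p-value could be given, and each difference is between single libraries.

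The unit was taken to be FPKM, a fragment count divided by transcript length and by the library's mapped fragments, a unit meant to make genes of different length comparable within a library. Whether reads covered whole transcripts or only their ends is not known, and with ends alone this scaling would overstate short transcripts. Ratios between genes below carry that limit. From 5109 genes under the skin label to 6634 genes under the heart label were above 0 in a library. The sequencing depth was not recovered, and a gene listed at 0 may be expressed below what a library could show. Most markers of the tissue labels were listed at 0 under their own label. Of 40 marker genes, 8 for each label, 7 were above 0 in the library of that label, beside 23.6% to 31.2% of genes with a name in a library. They were KRT10 and PERP for skin, PDPN for lung, ACTC1 and FABP3 for heart, and ACTA1 and TNNT1 for limb, with 0 of 8 for brain. ACTA1 followed its label, at 37.6 FPKM under the limb label and at most 1.57 FPKM elsewhere. So did TNNT1, at 18.1 FPKM there and 0 elsewhere. Other markers were listed only under a label not their own. The lung marker SFTPC was listed under the limb label alone, at 34.2 FPKM. The skin marker KRT5 (51.0 FPKM) and the brain marker GAD2 (10.45 FPKM) were listed under the lung label alone. Each library is therefore named by its label only. In a library made from many cells, fewer cells of a type and less RNA per cell cannot be told apart.

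The SLC25 carriers are small proteins, most of them in the inner mitochondrial membrane and nearly all built from tandem repeats that cross the membrane. Among the members, SLC25A17 of the peroxisome and SLC25A46 of the outer membrane are exceptions. Carriers of the inner membrane move nucleotides, phosphate, carboxylic acids, amino acids and cofactors between the cytosol and the matrix. The ADP/ATP carriers bring ADP in and let ATP out, and the phosphate carrier supplies the phosphate that ATP synthase joins to ADP, so these transporters work together in ATP supply. The carriers of the inner membrane are made in the cytosol and inserted through the TIM22 complex. The roles given below are known mainly from human and rodent proteins.

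Of the 45 members, 27 (60.0%) were above 0 in at least 1 library, beside 35.8% of all genes and 45.0% of genes with a name. Above 0 in all 5 libraries were 9 members (20.0%), beside 9.44% of all genes and 12.3% of genes with a name. These 9 were the phosphate carrier SLC25A3, the ADP/ATP carriers SLC25A4, SLC25A5 and SLC25A6, the oxoglutarate carrier SLC25A11, the ornithine carrier SLC25A15, the peroxisomal cofactor carrier SLC25A17, the ATP-Mg/phosphate carrier SLC25A24 and the glutathione carrier SLC25A39. Another 18 members were above 0 in 1 to 4 libraries, and the other 18 were listed at 0 throughout.

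By library, 20 members (44.4%) were above 0 under the brain label, beside 31.0% of genes with a name. The heart-labelled library had 21 (46.7%), beside 31.2%. The lung-labelled library had 14 (31.1%), beside 27.9%. The skin-labelled library had 13 (28.9%), beside 23.6%, and the limb-labelled library also had 13 (28.9%), beside 24.6%. The brain- and heart-labelled libraries, which listed the most carriers, also listed the most genes overall. Their medians over the values above 0 were the lowest, at 24.1 and 21.4 FPKM over all genes, beside 29.3 to 38.7 FPKM in the other 3.

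**Figure D1:**
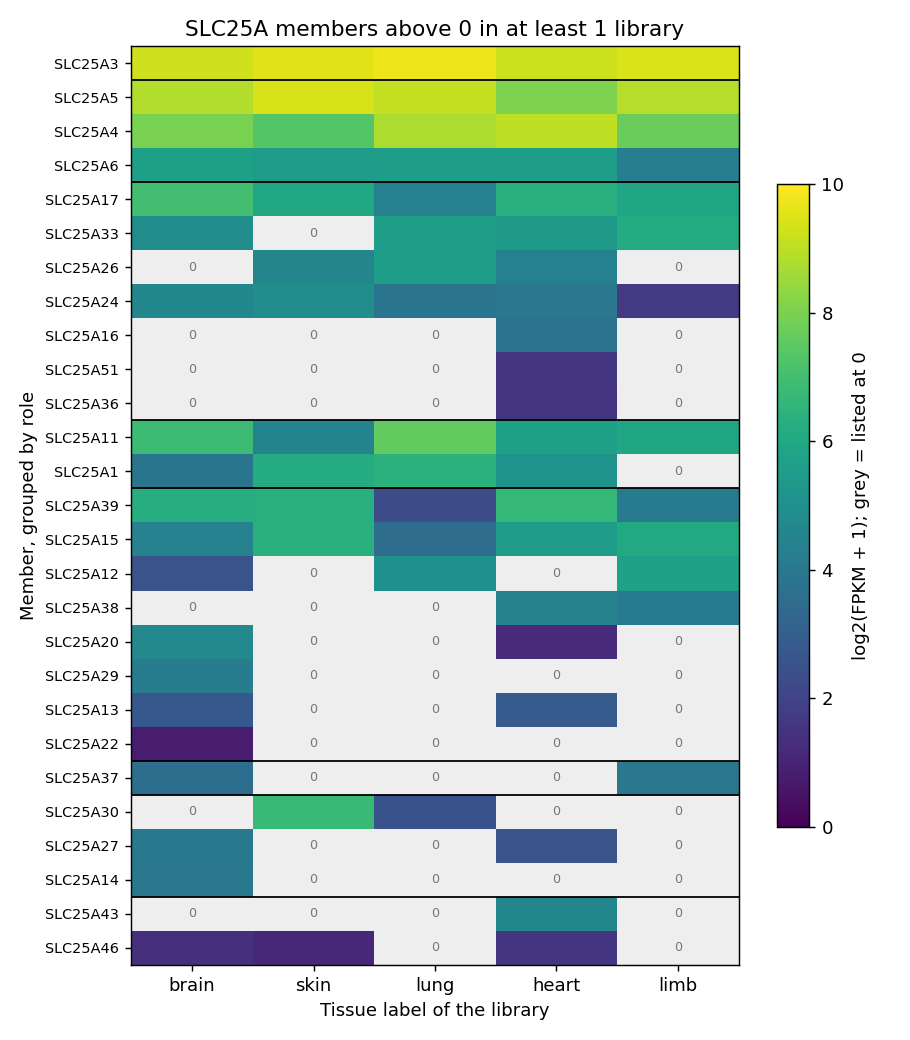
The 27 SLC25A members above 0 in at least 1 library (rows, grouped by role and ordered by mean level) in the 5 libraries (columns), coloured by log2(FPKM + 1), with grey cells marked 0 where a member was listed at 0. The phosphate carrier SLC25A3 and the ADP/ATP carriers SLC25A4 and SLC25A5 are bright in all 5 columns, while most other rows have grey cells.

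The phosphate carrier and the ADP/ATP carriers held most of the summed level of the 45 members. SLC25A3 (ENSBTAG00000012890), the phosphate carrier, was the highest SLC25A member in all 5 libraries. It stood at 614 FPKM under the brain label, 734 FPKM under the skin label, 862 FPKM under the lung label, 604 FPKM under the heart label and 692 FPKM under the limb label. The highest value was 1.43 times the lowest, and SLC25A3 ranked between position 267 and position 329 among all genes of a library. It was the most even of the 9 members above 0 throughout.

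SLC25A5 (ENSBTAG00000046037), the ADP/ATP carrier known from growing and proliferating cells, stood at 459 FPKM under the brain label, 670 FPKM under the skin label, 548 FPKM under the lung label, 266 FPKM under the heart label and 471 FPKM under the limb label. It was highest under the skin label and lowest under the heart label, with a ratio of 2.52. The proliferation genes were also highest under the skin and lung labels. Of 8 genes on that list (MKI67, TOP2A, CCNB1, UBE2C, BIRC5, CDK1, PCNA and RRM2), 7 were above 0 in each of these libraries. Their summed levels were 851 and 1166 FPKM, and 23.6% and 27.9% of genes with a name were above 0 there. Some of the 7 were low, with MKI67 at 0.54 FPKM and RRM2 at 0.45 FPKM under the skin label, and MKI67 at 3.44 FPKM under the lung label. The brain-, heart- and limb-labelled libraries had 1 of 8 each, beside 31.0%, 31.2% and 24.6% of genes with a name. Their sums were 1.13, 34.8 and 76.1 FPKM, and CDK1 was listed at 0 in all 5. The part of the proliferation genes in the SLC25A5 level was not tested.

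SLC25A4 (ENSBTAG00000013208), the ADP/ATP carrier typical of heart and skeletal muscle, stood at 253 FPKM under the brain label, 161 FPKM under the skin label, 432 FPKM under the lung label, 524 FPKM under the heart label and 208 FPKM under the limb label. Its highest value, under the heart label, was 3.25 times its lowest, under the skin label. Cardiomyocyte genes were set beside it, and their part in the SLC25A4 level was not tested. Of 8 on the list, 6 were listed at 0 under the heart label, among them TNNT2, MYH6, MYH7 and TNNI3, while ACTC1 was at 5.21 FPKM and FABP3 at 36.0 FPKM. The limb-labelled library, which had the highest ACTC1 (231 FPKM) and the muscle actin ACTA1 at 37.6 FPKM, had the second lowest SLC25A4. The summed level of the 8 cardiomyocyte genes ranged from 41.2 FPKM under the heart label to 324 FPKM under the skin label, where FABP3 alone made up the sum, as it did under the lung label, at 246 FPKM.

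SLC25A6 (ENSBTAG00000047418), an ADP/ATP carrier found in most human tissues, was low beside the other two. It stood at 49.9 FPKM under the brain label, 44.0 FPKM under the skin label, 47.0 FPKM under the lung label, 46.2 FPKM under the heart label and 18.2 FPKM under the limb label. The first 4 values lay close together and the limb-labelled value was apart from them. SLC25A31, the ADP/ATP carrier of male germ cells, was listed at 0 in all 5 libraries. The coding sequences of the ADP/ATP carriers are similar, so reads may have been shared between them and the split among them is uncertain.

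**Figure D2:**
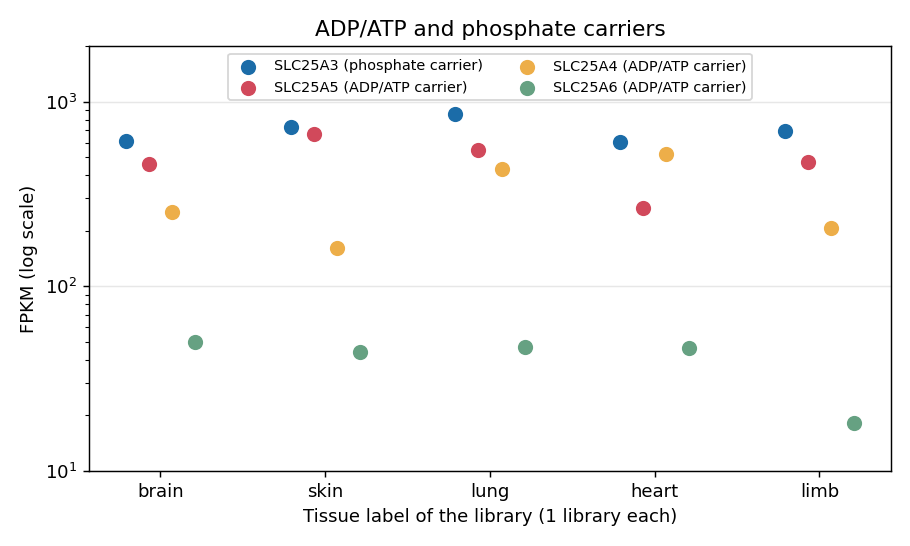
FPKM on a log axis of the phosphate carrier SLC25A3 and the ADP/ATP carriers SLC25A5, SLC25A4 and SLC25A6 in the 5 libraries, with 1 point per gene and library. SLC25A3 is the top point for each label, SLC25A5 lies above SLC25A4 under 4 labels and below it under the heart label, and SLC25A6 lies lowest, at 18.2 to 49.9 FPKM.

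The ADP/ATP carriers were then set against the phosphate carrier within each library, where the ratio does not depend on how libraries are scaled. SLC25A3 was above each single ADP/ATP carrier in all 5 libraries. It exceeded the highest of them by a factor of 1.34 under the brain label, 1.10 under the skin label, 1.57 under the lung label, 1.15 under the heart label and 1.47 under the limb label. Summed, the ADP/ATP carriers were at or above SLC25A3. Their sum was 1.24 times SLC25A3 under the brain label, 1.19 times under the skin label, 1.19 times under the lung label, 1.38 times under the heart label and 1.01 times under the limb label. The summed ADP/ATP level itself ranged from 697 FPKM under the limb label to 1027 FPKM under the lung label, a ratio of 1.47.

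What differed more was which ADP/ATP carrier made up the sum. SLC25A5 was above SLC25A4 in 4 libraries, by 4.16 times under the skin label, 2.27 times under the limb label, 1.81 times under the brain label and 1.27 times under the lung label. Under the heart label the order was turned, with SLC25A4 at 1.97 times SLC25A5. SLC25A5 held 60.2% of the ADP/ATP sum under the brain label, 76.5% under the skin label, 53.4% under the lung label, 31.8% under the heart label and 67.6% under the limb label. SLC25A6 held between 2.61% under the limb label and 6.55% under the brain label. With 1 library per label, the turn under the heart label has no replicate check.

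**Figure D3:**
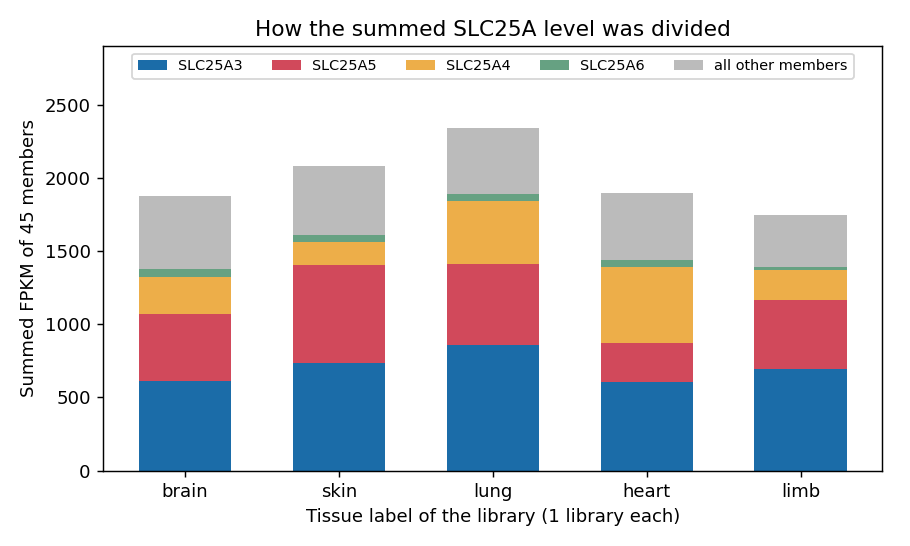
Summed FPKM of the 45 members in each library, stacked as SLC25A3, SLC25A5, SLC25A4, SLC25A6 and all other members. The totals lie between 1747 and 2341 FPKM, the 4 named carriers fill 73.4% to 80.7% of each bar, and the SLC25A4 segment is larger than the SLC25A5 segment only under the heart label.

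The 45 members summed to 1876 FPKM under the brain label, 2082 FPKM under the skin label, 2341 FPKM under the lung label, 1899 FPKM under the heart label and 1747 FPKM under the limb label. Genes of the carrier fold without an SLC25A symbol, given further below, are not in these sums. The ADP/ATP and phosphate carriers held 73.4%, 77.3%, 80.7%, 75.8% and 79.5% of these sums in the same order. The members took between 0.155% of the summed FPKM of all genes under the limb label and 0.200% under the lung label. All other members together stood between 357 FPKM under the limb label and 500 FPKM under the brain label. The highest of these other members differed by library. It was SLC25A17 under the brain label, SLC25A30 under the skin label, SLC25A11 under the lung label, SLC25A39 under the heart label and SLC25A33 under the limb label.

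Among the carriers of carboxylic acids, SLC25A11, the oxoglutarate carrier of the malate-aspartate shuttle, stood at 115 FPKM under the brain label, 21.8 FPKM under the skin label, 190 FPKM under the lung label, 52.4 FPKM under the heart label and 59.8 FPKM under the limb label. Its highest value, under the lung label, was 8.74 times its lowest, under the skin label. SLC25A1, the citrate carrier that exports citrate for lipid synthesis, stood at 13.9 FPKM under the brain label, 69.9 FPKM under the skin label, 81.9 FPKM under the lung label and 34.3 FPKM under the heart label and was listed at 0 under the limb label. The skin- and lung-labelled libraries, which carried the proliferation genes, were its highest, and the part of those genes in it was not tested. SLC25A21, the oxodicarboxylate carrier, was listed at 0 throughout.

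The aspartate/glutamate carriers, the other arm of the malate-aspartate shuttle, were uneven. SLC25A12 stood at 4.84 FPKM under the brain label, 31.4 FPKM under the lung label and 51.4 FPKM under the limb label and at 0 in the other 2. SLC25A13 was listed at 5.74 FPKM under the brain label and 6.38 FPKM under the heart label, and at 0 elsewhere. The skin-labelled library listed neither, although it listed SLC25A11.

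Of the other amino acid, glutathione and acylcarnitine carriers, SLC25A15 and SLC25A39 were above 0 in all 5 libraries. SLC25A15, which carries ornithine for the urea cycle and related pathways, stood at 20.3 FPKM under the brain label, 80.6 FPKM under the skin label, 10.9 FPKM under the lung label, 45.5 FPKM under the heart label and 67.3 FPKM under the limb label. SLC25A39, which is needed for glutathione in mitochondria, stood at 73.5 FPKM under the brain label, 77.9 FPKM under the skin label, 4.04 FPKM under the lung label, 98.9 FPKM under the heart label and 16.0 FPKM under the limb label. Both were lowest under the lung label, and SLC25A39 spanned a ratio of 24.5, the widest of the 9 members above 0 throughout. SLC25A40, the close relative of SLC25A39, was listed at 0 in all 5 libraries.

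The remaining carriers of this group appeared in 1 or 2 libraries each. SLC25A20, which carries acylcarnitines for fatty acid oxidation, was at 25.1 FPKM under the brain label and 1.29 FPKM under the heart label. SLC25A29, a carrier of basic amino acids, was listed only under the brain label, at 17.8 FPKM, as was the glutamate carrier SLC25A22, at 0.73 FPKM. SLC25A38, the glycine carrier that supplies haem synthesis, was at 21.4 FPKM under the heart label and 16.6 FPKM under the limb label. In all, 8 of the 11 members of this group were above 0 in at least 1 library, beside 45.0% of genes with a name. By label, 7 were above 0 under brain, 5 under heart, 4 under limb, 3 under lung and 2 under skin. In the same order, 31.0%, 31.2%, 24.6%, 27.9% and 23.6% of genes with a name were above 0. SLC25A2, a second ornithine carrier, and SLC25A44, a carrier of branched-chain amino acids, were listed at 0 throughout.

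Carriers of other nucleotides and of cofactors formed the largest group. In at least 1 library 7 of its 13 members were above 0, beside 45.0% of genes with a name. SLC25A17, a peroxisomal carrier of coenzyme A and related cofactors, stood at 126 FPKM under the brain label, 62.8 FPKM under the skin label, 20.3 FPKM under the lung label, 76.9 FPKM under the heart label and 59.1 FPKM under the limb label. SLC25A24, which exchanges ATP-Mg for phosphate under calcium control, stood at 24.6 FPKM under the brain label, 29.6 FPKM under the skin label, 13.6 FPKM under the lung label, 14.6 FPKM under the heart label and 2.24 FPKM under the limb label. Its relatives SLC25A23, SLC25A25 and SLC25A41 were listed at 0 in all 5 libraries, so SLC25A24 was the only ATP-Mg/phosphate carrier listed.

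SLC25A33, a carrier of pyrimidine nucleotides, stood at 28.5 FPKM under the brain label, 47.4 FPKM under the lung label, 40.9 FPKM under the heart label and 70.3 FPKM under the limb label and was listed at 0 under the skin label. The related SLC25A36 was listed only under the heart label, at 1.81 FPKM. SLC25A26, which imports S-adenosylmethionine, the methyl donor, was at 22.5 FPKM under the skin label, 47.5 FPKM under the lung label and 19.8 FPKM under the heart label and at 0 in the other 2. The heart-labelled library listed the most of this group, 7 of 13, beside 3 or 4 in each other library, and it also listed the largest share of genes with a name, 31.2% beside 23.6% to 31.0%. SLC25A16, linked to coenzyme A, at 12.9 FPKM, and the NAD carrier SLC25A51, at 1.99 FPKM, were listed under the heart label only. SLC25A32 for folate and FAD and SLC25A42 for coenzyme A were listed at 0 throughout.

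Iron carriers and relatives of the uncoupling proteins were found in few libraries. SLC25A37 (mitoferrin 1) was at 11.4 FPKM under the brain label and 14.7 FPKM under the limb label, and SLC25A28 (mitoferrin 2) was listed at 0 in all 5. SLC25A30, a kidney-type uncoupling protein relative, reached 107 FPKM under the skin label against 4.79 FPKM under the lung label, a ratio of 22.4, and was listed at 0 in the other 3. SLC25A27 was at 15.3 FPKM under the brain label and 5.16 FPKM under the heart label, and SLC25A14 at 15.2 FPKM under the brain label only. SLC25A27 and SLC25A14 are known as brain-type relatives. In the brain-labelled library 0 of the 8 neuronal marker genes were above 0, beside 31.0% of genes with a name. A link between these was not tested. The limb-labelled library listed 0 of these 3 uncoupling protein relatives, beside 24.6% of genes with a name. In at least 1 library all 3 were above 0, beside 45.0% of genes with a name.

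Of the 8 other or less characterised members, 2 were above 0 in at least 1 library, beside 45.0% of genes with a name. SLC25A46, an outer membrane protein with a part in mitochondrial shape, stood at 1.63 FPKM under the brain label, 1.17 FPKM under the skin label and 2.01 FPKM under the heart label. SLC25A43 was at 23.2 FPKM under the heart label only. SLC25A34, SLC25A35, SLC25A45, SLC25A47, SLC25A48 and SLC25A53 were listed at 0 in all 5 libraries. By the order of protein-coding genes in RefSeq's ARS-UCD2.0 assembly, where all 45 members were matched by symbol, SLC25A5 and SLC25A43 are direct neighbours, as are SLC25A23 and SLC25A41, and SLC25A29 and SLC25A47. Levels of neighbours were set side by side. SLC25A5 was lowest in the library that listed SLC25A43. SLC25A47 was at 0 in all 5 libraries, and SLC25A29 was listed under the brain label only. SLC25A23 and SLC25A41 were both at 0 in all 5 libraries. A link between neighbours was not tested. SLC25A10, SLC25A18 and SLC25A52 were not analysed here.

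A fold rule was used in place of a test. Between a pair of libraries, a gene was counted when its higher value was at least 10 FPKM and the ratio of (FPKM + 1) was at least 4. Between the brain and skin labels 10 of 18 members were counted, beside 49.5% of all genes at that level, and between the brain and lung labels 10 of 18, beside 46.2%. Brain against heart gave 8 of 20, beside 37.0%, and brain against limb 9 of 18, beside 45.7%. Skin against lung gave 6 of 14, beside 51.6%, skin against heart 5 of 16, beside 50.9%, and skin against limb 9 of 16, beside 53.6%. Lung against heart gave 5 of 16, beside 48.2%, lung against limb 6 of 15, beside 53.1%, and heart against limb 8 of 17, beside 45.9%. The pairs share libraries and are not independent.

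In 55 of these 76 counted differences the lower library was listed at 0, and with a pseudocount of 10 the number fell to 24, with a minimum of 50 FPKM to 23. None of the 76 was in the ADP/ATP carriers or the phosphate carrier. Over all pairs, 18 of the 22 members at 10 FPKM or more in at least 1 library were counted in at least 1 pair, beside 83.8% of all such genes. The members outside this count were SLC25A3, SLC25A4, SLC25A5 and SLC25A6. Among all genes with a mean of 200 FPKM or more, a level chosen after the values were seen, 26.3% were counted in at least 1 pair, and of the 3 members at that level, SLC25A3, SLC25A4 and SLC25A5, 0 were. Most genes at that level were thus not counted either. Among the 793 genes of that level above 0 in all 5 libraries, the median ratio of highest to lowest was 2.59, between the 2.52 of SLC25A5 and the 3.25 of SLC25A4, and 225 had a ratio under 2, as did SLC25A3. For the 9 members above 0 in all 5 libraries the median ratio was 6.24, beside 4.48 for the 2607 genes above 0 throughout. The 2 sets differed in level, with a median of the mean levels of 69.1 FPKM for the members and 91.3 FPKM for all these genes. The part of level in the wider ratio was not tested.

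Members that stood apart in a single library were counted beside the share over all genes. To be called enriched, a gene had to reach 10 FPKM and, after adding 1, at least 4 times the highest value of the other libraries. The brain-labelled library had 3 such members of 16, SLC25A14, SLC25A20 and SLC25A29, beside 7.45% of all genes at 10 FPKM or more there. The heart-labelled library had 2 of 15, SLC25A16 and SLC25A43, beside 8.17%, and the skin-labelled library had 1 of 12, SLC25A30, beside 8.84%. The lung-labelled and limb-labelled libraries had 0 of 12 each, beside 10.2% and 7.99%. Apart from SLC25A30, these members stood at 12.9 to 25.1 FPKM. With a pseudocount of 10, or with a minimum of 50 FPKM, 1 of the 6 calls was left, that of SLC25A30.

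To be called depleted, a gene had to be at 10 FPKM or more in all other libraries, and the lowest of those had to be at least 4 times its own value after adding 1. The limb-labelled library had 2 such members of 9, SLC25A1 and SLC25A24, beside 11.2% of all genes that could be called. The skin-labelled library had 1 of 8, SLC25A33, beside 12.7%. The brain-labelled library had 0 of 7, beside 2.76%, the lung-labelled library 0 of 8, beside 9.19%, and the heart-labelled library 0 of 7, beside 4.27%. With a pseudocount of 10, or with a minimum of 50 FPKM, 0 of the 3 calls were left.

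Genes that work with the carriers were counted from lists of 26 measured genes, of which 21 were above 0 in at least 1 library and 11 in all 5, beside 45.0% and 12.3% of genes with a name. The voltage-dependent anion channels, through which metabolites cross the outer membrane to reach the carriers, were above the ADP/ATP carriers in sum. VDAC1 ranged from 188 to 531 FPKM, VDAC2 from 293 to 802 FPKM and VDAC3 from 332 to 668 FPKM, each lowest under the limb label. Their sum was 2.29 times the ADP/ATP sum under the brain label, 1.97 times under the skin label, 1.89 times under the lung label, 1.47 times under the heart label and 1.17 times under the limb label. The mitochondrial creatine kinases CKMT1A and CKMT2 were listed at 0 throughout. PPIF (cyclophilin D) was listed at 25.1 FPKM under the brain label and 26.1 FPKM under the heart label only.

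The TIM22 route that inserts carriers was listed in every library. In all 5 libraries 4 of its 7 genes were above 0, beside 12.3% of genes with a name. TIMM10, a small chaperone that guides carriers across the intermembrane space, stood at 828 FPKM under the brain label, 680 FPKM under the skin label, 1452 FPKM under the lung label, 302 FPKM under the heart label and 687 FPKM under the limb label. It was highest under the lung label and lowest under the heart label. Its partner TIMM9 ranged from 81.3 to 216 FPKM and the channel subunit TIMM22 from 22.9 to 81.4 FPKM, both also highest under the lung label. The import receptor TOMM70 ranged from 0.62 FPKM under the skin label to 47.7 FPKM under the lung label. TIMM10B was listed under 3 labels (brain, skin and heart), at 14.5 to 82.9 FPKM, while TIMM29 and AGK were listed in the lung- and limb-labelled libraries only, at 9.50 to 38.8 FPKM.

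**Figure D4:**
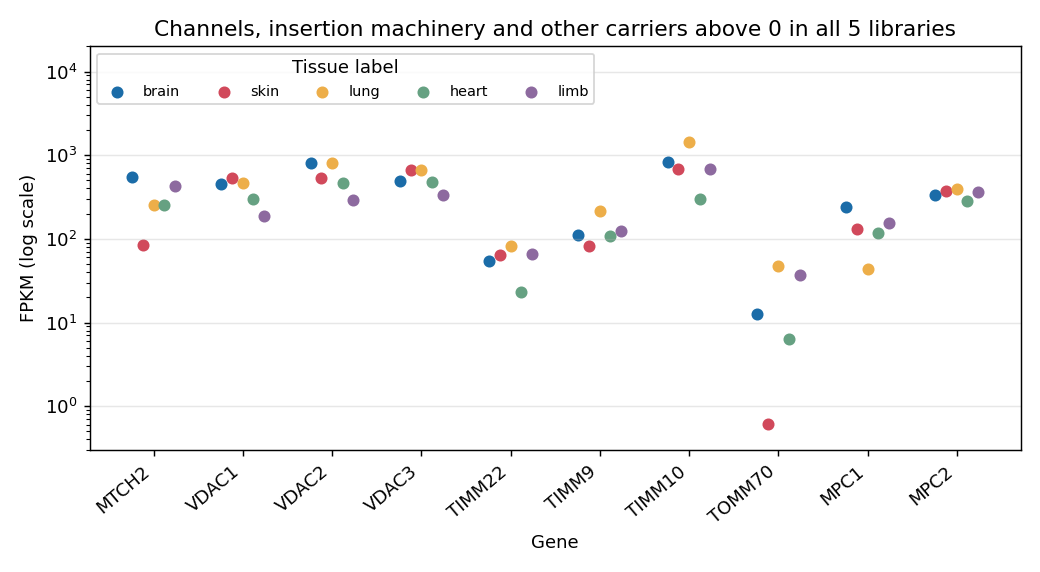
FPKM on a log axis of 10 channel, insertion and other carrier genes above 0 in all 5 libraries, with 1 point per library coloured by tissue label. The VDAC genes lie between 188 and 802 FPKM with the limb-labelled point lowest in each, TIMM10 reaches 1452 FPKM under the lung label, and TOMM70 falls to 0.62 FPKM under the skin label.

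Proteins with the same fold but another symbol, which were not counted in the member sums and shares above, were uneven as well. MTCH2, an outer membrane insertase with a carrier fold, stood at 543 FPKM under the brain label, 84.4 FPKM under the skin label, 253 FPKM under the lung label, 255 FPKM under the heart label and 424 FPKM under the limb label. The uncoupling protein UCP2 was at 204 FPKM under the lung label, 36.4 FPKM under the skin label and 23.7 FPKM under the limb label and at 0 in the other 2, which made it enriched under the lung label. UCP1, the uncoupling protein of brown fat, and UCP3, that of muscle, were listed at 0 throughout. MTCH1 was listed in 4 libraries at 0.81 to 15.1 FPKM.

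Among other inner membrane carriers, the pyruvate carrier subunit MPC2 ranged about as little as SLC25A3, at 285 to 393 FPKM with a ratio of 1.38. Its partner MPC1, with which it forms the carrier, was less even, at 240 FPKM under the brain label, 130 FPKM under the skin label, 44.0 FPKM under the lung label, 116 FPKM under the heart label and 155 FPKM under the limb label. The serine carrier SFXN1 was at 17.6 to 109 FPKM in 4 libraries and listed at 0 under the skin label, where it was called depleted.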

How the data were processed

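RNA of 5 cattle libraries was measured by sequencing. Per the submitters' processing notes, bcl2fastq, STAR and RSEM were used with the ARS-UCD1.2 build. The sources used here do not give versions, annotation release or filters. The deposited values were taken as FPKM by elimination. In each library 98.7% to 99.1% of non-zero values had decimals, and the sum was above the fixed total of TPM. Whether reads covered whole transcripts is not given. If only transcript ends were read, scaling by length would overstate short transcripts, which was not tested.

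The values were used as deposited with Python 3.11.15 and pandas 2.3.3. There were no replicates, so no test was run, and fold rules (4-fold, 10 FPKM, pseudocount 1) were used. The rules were run on data simulated from genes at 10 FPKM or more in all 5 libraries, with set fold changes and little noise. As those data held no values of 0, that run cannot tell how often calls in the real libraries are wrong. A fold on the (FPKM + 1) scale understates changes of low genes. Depth was sought in the spacing of low values. Of 3557 genes between 2 and 200 FPKM under the brain and heart labels, 275 lay within 0.3% of ratios of whole numbers up to 4 at the best depth ratio, but 258 did so at a depth ratio differing by a factor of 2, so depth is not stated and no counting interval is given.

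All members above 0 in any library are named with values. A few genes of the lists are not reported here. The members, lists and rules were chosen with earlier results of these data known. Alternatives were other minimums, folds, pseudocounts, sums and a rescaling by the median ratio. Each gene of a list was matched by its symbol.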

Additional observations from a re-analysis of the deposited data

How the results depend on the processing

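No paired analysis was possible because each label has 1 library and no test was run. The counts of members above 0 stayed within 1.5 times at minimums of 1 and 10 FPKM, and 9 to 10 members were above 0 in the other 4 libraries when each library in turn was not required, an alternative chosen after seeing the data. With the highest ADP/ATP carrier in place of the sum, the ratio to SLC25A3 was 0.747 under the brain label, 0.913 under skin, 0.636 under lung, 0.867 under heart and 0.681 under limb, below 1 in each, as only the highest carrier was taken. Over members above 0 in all 5 libraries, the ADP/ATP and phosphate carriers held 79.3%, 85.5%, 88.8%, 83.3% and 87.2% of the sum in the same order, since fewer members were summed. The 76 differences past 4-fold fell to 24 with a pseudocount of 10 and to 23 at a minimum of 50 FPKM. The 6 enriched members fell to 1 under each of these, and the 3 depleted members to 0. At a fold of 2 there were 7 depleted members. The median ratio of highest to lowest was 6.0 with 1 FPKM added, 3.23 with 10 FPKM added and 6.44 after rescaling by the median ratio, which shifted libraries by -0.14 to 0.06 on the log2 scale. The causes were not tested. As depth is unknown, members listed at 0 may lie below what a library could show.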
